A study of Mus musculus with 25 samples.

Results

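The Tim4+ macrophages of mouse white adipose tissue (WAT in the labels, eWAT in the titles) were sorted into a population with low surface MHCII, called pop1, and one with high MHCII, called pop2. They make up 8 of the 25 libraries of the series: 4 of pop1 and 4 of pop2, chosen by the gate given in the labels and not by any measured value. Every mouse was of strain C57BL6. On each side, 2 libraries came from mice on the control diet (CD, 10% fat) and 2 from mice on the high fat diet (HFD, 45% fat). The CD libraries are titled CD-CD and numbered 7 and 8, and the HFD libraries are numbered 2 and 3. What CD-CD means is not given in the sources used here. Diet therefore cannot be told apart from any other difference between these 2 sets of libraries. Each library was made from 200 cells sorted after the tissue had been digested with collagenase in flavopiridol, an inhibitor of transcription, and this held for pop1 and pop2 alike. Sex, age, length of diet, and the number of animals behind a library are not given in the sources used here. The p-values therefore rest on the spread between libraries, estimated over all 25 of the series, part of which may be technical. The question was how the MHCII low cells differ from the MHCII high cells, over both diets and on each diet. The other libraries were Tim4- macrophages of the same tissue (pop3, CD11c-, MHCII high; pop4, CD11c+, MHCII+) and blood monocytes sorted on CD115 and Ly6C; they entered the fit and are used below as reference levels.

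Tim4, encoded by Timd4, is a receptor for phosphatidylserine on long-lived resident macrophages of many tissues. Class II molecules are pairs of an alpha and a beta chain that show peptides to CD4+ T cells. They are assembled on the invariant chain (Cd74), loaded with peptide under the control of the DM pair (H2-DMa, H2-DMb1), and transcribed through the coactivator CIITA and the RFX factors bound at conserved promoter boxes. Ccr2 is the chemokine receptor that brings monocytes from blood into tissue. Large macrophages of the peritoneal cavity are low in MHCII and are known for Gata6, a factor that depends on retinoic acid, and for genes such as Prg4, Alox15, F5, F10, Selp and Tgfb2. These genes were therefore read as a list beside those of resident, recruited and other cells.

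The promoters of 3 of the class II genes that differed are shown because the letters through which this family is regulated can be read in them. They run from 250 bases before to 50 bases after the RefSeq start (assembly GRCm38.p6, the mm10 build of the counts), at chr17:34287774-34288073 on the minus strand for H2-Aa, chr17:34305617-34305916 on the plus strand for H2-Eb1, and chr17:34152941-34153240 on the plus strand for H2-DMb1. Capitals mark the Y box GATTGG (or CCAATC, its other strand), the X box (AGNNAC directly followed by NGATG) and the X2 box TGACGTCA.
H2-Aa: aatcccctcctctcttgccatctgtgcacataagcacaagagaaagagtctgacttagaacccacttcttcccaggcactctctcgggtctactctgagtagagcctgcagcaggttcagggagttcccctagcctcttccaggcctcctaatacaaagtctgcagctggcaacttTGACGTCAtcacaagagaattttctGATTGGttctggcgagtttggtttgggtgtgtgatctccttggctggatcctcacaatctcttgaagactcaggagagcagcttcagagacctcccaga
H2-Eb1: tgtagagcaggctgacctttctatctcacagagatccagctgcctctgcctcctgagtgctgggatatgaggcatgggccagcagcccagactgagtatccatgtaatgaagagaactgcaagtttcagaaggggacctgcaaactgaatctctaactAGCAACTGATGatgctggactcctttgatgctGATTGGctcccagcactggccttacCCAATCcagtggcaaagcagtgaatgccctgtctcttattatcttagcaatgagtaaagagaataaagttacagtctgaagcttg
H2-DMb1: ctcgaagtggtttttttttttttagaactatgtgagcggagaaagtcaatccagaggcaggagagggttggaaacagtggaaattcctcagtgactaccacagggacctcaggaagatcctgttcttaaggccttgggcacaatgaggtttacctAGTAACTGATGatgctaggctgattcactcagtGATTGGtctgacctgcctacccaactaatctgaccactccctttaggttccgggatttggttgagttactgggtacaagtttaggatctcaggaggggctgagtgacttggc
Both strands were searched, and no marked motifs overlap each other in these 3 windows. H2-Eb1 and H2-DMb1 hold the X box upstream of the Y box, and H2-Aa holds the X2 box upstream of it. Of all 32851 promoter windows of this length, 16.1% held the Y box letters, 0.968% the X box letters and 1.79% the X2 box letters. Of 17 class II presentation genes 13 had a window, and 10 of these held the Y box letters, 4 the X box letters and 1 the X2 box letters. H2-Ab1, Prg4 and Alox15 are named without a window. The H2-Aa window follows the RefSeq start and lies wholly upstream of the gene model of the counts, which ends at 34287771 on that strand. A match is a description of letters, not of a bound site.

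The 8 libraries held 3752835 to 6629280 counts, the 2 smallest totals being those of pop2 HFD, and 15236 to 17675 genes with at least 3 counts. Levels are given as CPM, the usual depth-normalised count, with library sizes scaled by the trimmed mean of M values (TMM; factors 0.959 to 1.15). At these depths 3 counts, taken as the floor for counting error alone, equalled 0.413 to 0.698 CPM. Libraries of a group correlated across genes at 0.815 (pop2 HFD) to 0.866, and the spread of their counts was 70.3 to 90.6 times that of sampling alone, so none was a duplicate of another. Counts in olfactory and vomeronasal receptor genes, best known from sensory neurons although some are also known in macrophages, summed to 687 and 638 CPM in the CD libraries of pop1, 267 and 293 in its HFD libraries, 370 and 387 in the CD libraries of pop2, and 548 and 781 in its HFD libraries. This sum, taken below as a receptor background, was higher in pop1 on the CD and higher in pop2 on the HFD. Mesothelial genes summed to 3.58 to 20.2 CPM and B cell genes to 6.83 to 59.3 CPM. Other sums reached higher. Adipocyte genes summed to 153 to 409 CPM in pop1 and 201 to 725 CPM in pop2. Stromal progenitor genes summed to 187 to 860 and 382 to 589 CPM, and T cell genes to 24.2 to 89.9 and 17.2 to 197 CPM. None of these lists had a gene past the threshold in edgeR over both diets. Neutrophil genes summed to 60.4 to 86.7 CPM in pop1 and 21.8 to 58.9 CPM in pop2, with no overlap. Much of that sum was Csf3r, the G-CSF receptor that monocytes also had (mean 136 CPM), at 42.9 to 53.7 CPM in pop1 and 13.8 to 46.4 CPM in pop2. Of the 12 genes of this list, S100a9, Ly6g, Elane, Camp and Ngp were at 0 to 1.16 CPM in all 8 libraries. Other members made up the rest of the sum, and whether neutrophils were present was not tested. Of 9 neutrophil genes tested 0 passed in edgeR (1 higher at an unadjusted p under 0.05; 0 in DESeq2). Red cell genes summed to 2.76 to 664 CPM in the pop1 libraries and 100.1 to 1029 CPM in the pop2 libraries. None of the 11 passed in edgeR. At an unadjusted p under 0.05 in edgeR 6 were lower in pop1, against 783 of all 16961 genes. In DESeq2, which called more genes in all than edgeR, 5 were lower.

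The gates can be set beside the RNA of their genes. Timd4 was read at 624, 494, 370 and 262 CPM in pop1 (CD 7, CD 8, HFD 2 and HFD 3; this order is kept throughout) and at 495, 562, 88.6 and 102 CPM in pop2, against means of 3.27 in pop3 and 2.72 in pop4. It did not pass between pop1 and pop2 (log2 difference 0.90, SE 0.70, edgeR adjusted p = 0.765). Itgax, the gene of CD11c, stayed between 0.349 and 2.87 CPM in all 8 libraries, against means of 20.1 in pop3 and 185 in pop4. The resident macrophage list had 0 of 27 genes past the threshold in edgeR (2 higher and 2 lower at an unadjusted p under 0.05; 1 higher and 1 lower in DESeq2), and its median log2 difference was -0.07, against -0.07 over all genes tested. Lyve1, a hyaluronan receptor, differed by 0.21 (SE 0.37), Mrc1, the mannose receptor, by -0.02 (SE 0.26), Folr2, a folate receptor, by 0.04 (SE 0.58), and Cd163, a hemoglobin scavenger receptor, by -0.18 (SE 0.72). These 4 genes were abundant in both populations, at 474 to 1661 CPM.

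Over both diets, 79 of 16961 genes passed an adjusted p of 0.05 (0.466% of the genes tested; 1664 at an unadjusted p under 0.05): 48 were higher in pop1 (0.283%) and 31 lower (0.183%). All log2 differences are pop1 minus pop2. They come from edgeR's quasi-likelihood test with the 25 libraries in 1 fit, each diet weighed equally, and adjusted p-values are Benjamini-Hochberg over all genes. The libraries in the fit changed the count: the 16 adipose libraries alone gave 19 genes, and the 8 Tim4+ libraries alone, with diet as a covariate, gave 3: Alox15 (higher), Cd74 and H2-Aa (lower). Without replicate 2 of pop2 HFD the count was 239 (167 higher, 72 lower), of which 62 were among the 79. The lists described next were chosen with earlier results of these data known, so their counts are descriptions.

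Among class II presentation genes those that passed were lower in pop1, the direction of the gate, which chose the cells on this protein. Of 17 tested, 5 were lower and 0 higher, against 0.183% of all genes lower. In DESeq2, which called more genes in all than edgeR, 6 were lower. The median over the list was -0.72. H2-Aa (chr17:34282751-34287771), the I-A alpha chain, was read at 558, 635, 384 and 578 CPM in pop1 and at 1647, 1577, 1191 and 1252 CPM in pop2. Every pop2 library lay above every pop1 library, and the log2 difference was -1.39 (SE 0.17, adjusted p = 0.000205). H2-Ab1 (chr17:34263227-34269418), the beta chain of the same pair, was at 162, 272, 252 and 416 CPM against 807, 880, 916 and 1054 CPM (-1.76, SE 0.24, adjusted p = 0.000419). H2-Eb1 (chr17:34305867-34316674), the I-E beta chain, was at 138, 188, 94.5 and 410 CPM against 751, 768, 810 and 866 CPM (-1.98, SE 0.39, adjusted p = 0.018). Its pop1 libraries were the more scattered, and the call was lost without either pop1 CD library or without replicate 2 of pop1 HFD (adjusted p up to 0.108).

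The invariant chain and 1 of the 2 chains of the DM pair followed the class II chains. Cd74 was at 567.9, 553, 475 and 562 CPM in pop1 and 1216, 1183, 1193 and 1417 CPM in pop2, and had the smallest standard error of the 5 (-1.21, SE 0.12, adjusted p = 2.09e-05). H2-DMb1 (chr17:34153191-34160229), the DM beta chain, was at 102, 71.7, 59.6 and 90.2 CPM against 195, 186, 150 and 250 CPM (-1.28, SE 0.19, adjusted p = 0.00135). For each of these 5 genes the populations did not overlap, as for 1.4% of all genes in that direction. H2-DMa did not pass (-0.57, SE 0.22, adjusted p = 0.358): its CD libraries were at 185 and 205 CPM in pop1 and 361 and 407 CPM in pop2, but replicate 2 of pop2 HFD had 87.1 CPM. Ciita, the coactivator of the family, was at 6.55, 19.3, 5.37 and 43.2 CPM in pop1 and 39.7, 37.0, 121 and 170 CPM in pop2. Its ranges overlapped through 1 pop1 HFD library, and it did not pass (-2.08, SE 0.63, adjusted p = 0.19). Rfx5 (adjusted p = 0.553), Rfxap (0.336) and Rfxank (0.933), the subunits of the RFX complex, did not pass either.

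Processing enzymes of the same route did not pass. Ctss, the protease that cuts the invariant chain, was at 1004, 885, 723 and 805 CPM in pop1 and 906, 996, 794 and 806 CPM in pop2 (-0.04, SE 0.10). Lgmn, an endosomal protease, differed by 0.04 (SE 0.30) and Ifi30, a thiol reductase, by -0.05 (SE 0.21). Per kilobase of gene model, the mean level of H2-Aa was 507 CPM in pop1 and 1334 in pop2, that of Cd74 384 and 892, and that of H2-Eb1 125 and 481. In the Tim4- cells H2-Aa averaged 1435 CPM in pop3 and 1400 in pop4, and H2-Ab1 892 and 1077, inside the pop2 range except for H2-Ab1 in pop4, which lay above it. Monocyte means were 339 CPM for H2-Aa, 149.5 CPM for H2-Ab1, 35.2 CPM for H2-Eb1 and 495 CPM for Cd74, each below the pop1 mean; cell type, tissue and handling cannot be told apart there. Costimulatory genes had 0 of 11 past the threshold in edgeR (1 lower at an unadjusted p under 0.05; 0 in DESeq2). Cd86, a ligand of CD28, was at 285, 283, 259 and 254 CPM in pop1 and 491, 559, 141 and 83.3 CPM in pop2, above pop1 on the CD and below it on the HFD; neither diet nor their difference passed (adjusted p = 0.492, 0.135 and 0.0653).

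**Figure D1:**
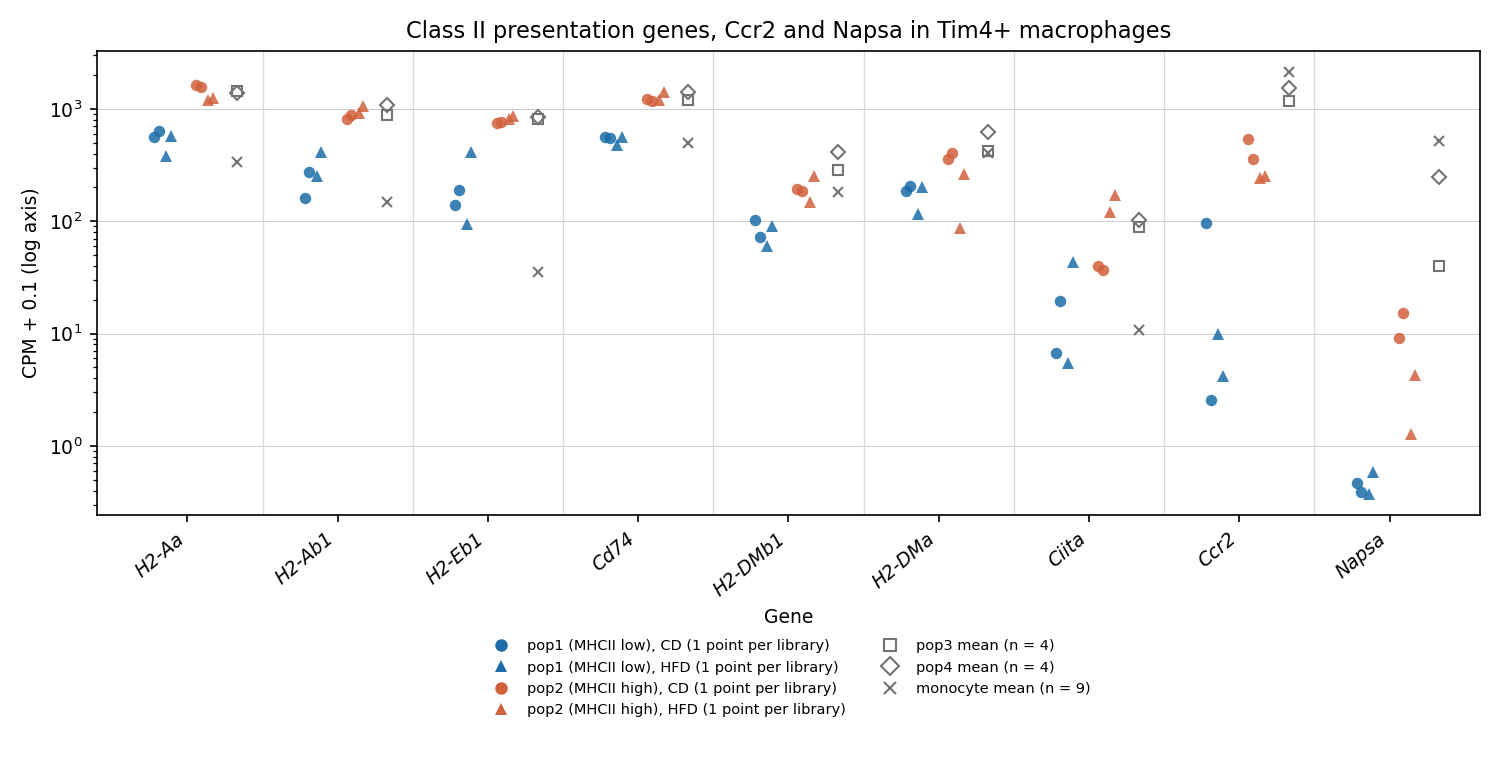
Levels of 7 class II presentation genes, Ccr2 and Napsa (CPM + 0.1, log axis), 1 point per library, with the means of pop3, pop4 and monocytes in grey. The pop1 points of H2-Aa, H2-Ab1, H2-Eb1, Cd74, H2-DMb1, Ccr2 and Napsa all lie under the pop2 points, while those of H2-DMa and Ciita overlap them.

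Of the recruited monocyte and macrophage list, 2 of 25 genes were lower in pop1 and 0 higher, against 0.183% of all genes lower. At an unadjusted p under 0.05 in edgeR 10 were lower and 2 higher, against 783 lower and 881 higher of all 16961 genes, and in DESeq2 6 were lower. Ccr2 (chr9:124102183-124109140) was read at 96.6, 2.48, 9.90 and 4.06 CPM in pop1 and at 540, 359, 245 and 254.5 CPM in pop2. The groups did not overlap although the pop1 CD 7 library stood well above the other pop1 libraries, and the log2 difference was -4.17 (SE 0.57, adjusted p = 0.000419). Means were 1167 CPM in pop3, 1521 in pop4 and 2140 in monocytes, all above the highest pop2 library. Napsa (chr7:44572445-44586846), an aspartic protease, was at 0.275 to 0.487 CPM in the pop1 libraries, 3 counts or fewer in each, and at 9.04, 15.0, 1.19 and 4.19 CPM in pop2 (adjusted p = 0.000205). Its means were 39.9 CPM in pop3, 246 CPM in pop4 and 522 CPM in monocytes. Clec12a, a myeloid C-type lectin, did not pass (-0.61, SE 0.15, adjusted p = 0.0703). Ly6c2, a gene of the Ly6C antigen of the monocyte gate, stayed at 0.182 to 1.98 CPM in all 8 libraries against 499 CPM in monocytes.

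The peritoneal macrophage list had 9 genes higher in pop1, and their levels were highest on the CD. Of 26 tested 0 were lower, and the 9 higher stand against 0.283% of all genes higher in edgeR. In DESeq2, which called more genes in all than edgeR, 15 were higher. The median log2 difference was 3.79, 25 of 26 were above 0, and in 10 the populations did not overlap, as in 1.29% of all genes in that direction. Prg4 (chr1:150449412-150466165), the gene of the lubricating glycoprotein lubricin, was read at 664, 708, 205 and 126.5 CPM in pop1 and at 55.3, 69.4, 98.5 and 71.4 CPM in pop2. The pop1 CD libraries stood at the top, the pop1 HFD libraries were lower but still above all of pop2, and the log2 difference was 2.21 (SE 0.26, adjusted p = 0.000193). Prg4 overlaps the end of Tpr on the other strand, and without stated use of strand their reads there cannot be told apart. Alox15 (chr11:70344147-70352031), a lipoxygenase, was at 252, 316, 34.1 and 44.8 CPM against 0, 0.523, 0.198 and 0.465 CPM, 3 counts or fewer in every pop2 library (8.38, SE 1.31, adjusted p = 0.00215). At such counts the fitted value depends on the prior count. Fn1 (chr1:71585473-71653234), fibronectin, was at 679, 647, 247 and 125 CPM against 233, 57.5, 29.1 and 13.7 CPM (2.65, SE 0.30, adjusted p = 0.000136). The Tim4- cells also had Fn1, at means of 441 CPM in pop3 and 1037 CPM in pop4.

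Coagulation and adhesion genes of the list passed as well. F5 (chr1:164151835-164220277), clotting factor V, was at 265, 210, 53.9 and 3.57 CPM in pop1 and 1.22 to 2.33 CPM in pop2 (5.63, SE 0.74, adjusted p = 0.000336). F10, clotting factor X, was at 148, 34.0, 10.2 and 0.487 CPM against 0.661 to 2.79 CPM, so 1 pop1 HFD library was below all of pop2 (4.07, SE 0.83, adjusted p = 0.0225). Selp, P-selectin, was at 105, 106, 15.4 and 2.43 CPM against 0 to 1.58 CPM (adjusted p = 0.0476). Itga6, an integrin chain that binds laminin, was at 286, 234, 52.1 and 40.9 CPM against 1.05 to 5.12 CPM (adjusted p = 0.0339). F5 and Selp share a locus on chromosome 1 and both overlap Gm16548 on the other strand; the counting is not stated to use strand. Outside the peritoneal list, Plaur, the urokinase receptor, was at 50.9, 60.1, 37.8 and 3.25 CPM against 0.872 to 11.7 CPM (2.86, SE 0.57, adjusted p = 0.0184). In all, 5 of the 16 coagulation and matrix adhesion genes were higher in pop1 and 0 lower, against 0.283% of all genes higher. At an unadjusted p under 0.05 in edgeR 8 were higher and 1 lower, against 881 higher and 783 lower of all 16961 genes, and in DESeq2 7 were higher. They were F5, F10, Fn1, Prg4 and Plaur, 4 of which the peritoneal list also holds.

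The list further held Tgfb2, a ligand of the TGF-beta family, and Padi4, an enzyme that citrullinates proteins. Tgfb2 (chr1:186622792-186705989) was at 131, 194, 17.7 and 34.7 CPM in pop1 and 0.441 to 2.09 CPM in pop2 (6.04, SE 1.16, adjusted p = 0.0146), and its means in pop3, pop4 and monocytes were 0.654, 0.0635 and 0.199 CPM. Padi4 was at 3.89 to 62.0 CPM, lowest in replicate 3 of the HFD, against 0 to 3.17 CPM (adjusted p = 0.0274). Padi4 is also known from neutrophils, whose summed markers were higher in pop1 as given above; their part in it was not tested. Of these 9 genes, Prg4, Alox15, F5 and Fn1 passed whichever of the 8 libraries was left out. The other 5 did not. F10 lost its call without either of 2 pop1 libraries (CD 7, HFD 2) or any pop2 library (adjusted p up to 0.285), and Tgfb2 without any pop2 library (up to 0.108). Selp and Padi4 lost theirs without pop1 CD 7, CD 8 or HFD 2, or pop2 CD 7, HFD 2 or HFD 3 (up to 0.175 and 0.123), and Itga6 without any library but pop1 HFD 3 (up to 0.149). Without both pop1 CD libraries the difference rests on the HFD libraries alone, and there Prg4 differed by 0.96 and was not called, nor were Alox15 and F5. Plaur lost its call without replicate 2 of pop1 HFD or replicate 3 of pop2 HFD (adjusted p up to 0.192).

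Other peritoneal genes had wide differences in level that did not pass. Gata6 was at 45.3 and 48.3 CPM in the CD libraries of pop1, while its HFD libraries held 1 count each (0.138 and 0.162 CPM). It was at 0.523 to 1.16 CPM in pop2, so only the pop1 CD pair was above a level of a few counts (adjusted p = 0.647; on the CD 6.27, SE 1.61, adjusted p = 0.157). Thbs1, thrombospondin 1, was at 327, 408, 238 and 26.8 CPM against 0.791 to 9.48 CPM (adjusted p = 0.0856). Ltbp1, a binding protein of latent TGF-beta, was at 127, 122, 31.2 and 17.5 CPM against 1.32 to 3.95 CPM (adjusted p = 0.0677). Saa3, an acute phase protein, was at 284, 311, 41.0 and 56.3 CPM against 0 to 17.6 CPM (adjusted p = 0.177). In each of these 3 the populations did not overlap, as in 1.29% of all genes in that direction. Serpinb2, an inhibitor of plasminogen activators, was at 426, 312 and 30.4 CPM in 3 pop1 libraries but at 0.325 CPM in replicate 3 of pop1 HFD, and at 0.174 to 0.791 CPM in pop2 (adjusted p = 0.0896). Cd5l, a secreted macrophage protein outside the peritoneal list, was at 160, 190, 71.8 and 62.1 CPM against 1.98 to 46.3 CPM (adjusted p = 0.229). Ednrb and C4b, which both Tim4+ populations had at 189 to 1041 CPM, differed by 0.18 (SE 0.88) and 0.35 (SE 0.69).

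**Figure D2:**
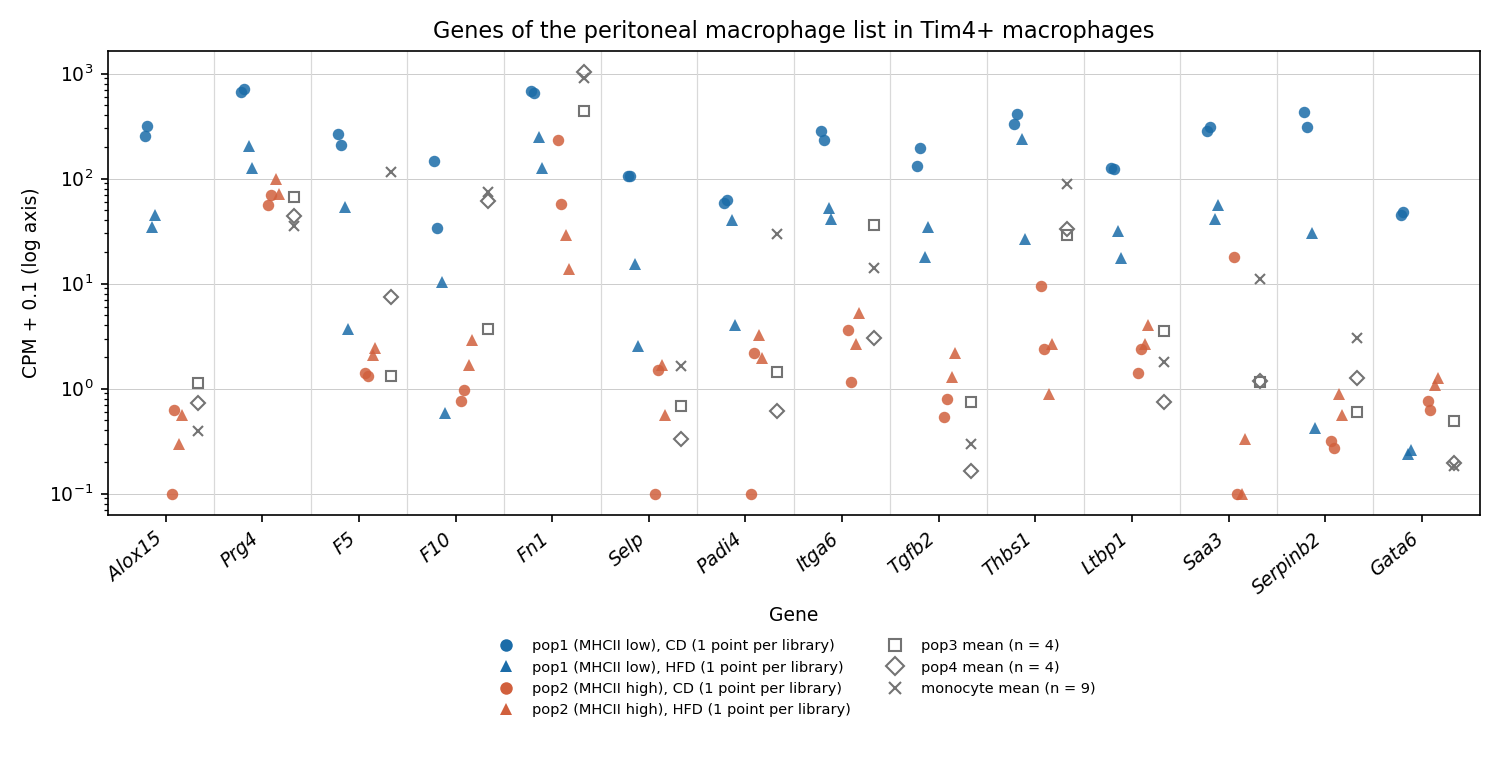
Levels of 14 genes of the peritoneal macrophage list (CPM + 0.1, log axis), 1 point per library, with the means of pop3, pop4 and monocytes in grey. The pop1 CD circles lie highest among the Tim4+ libraries in each gene, the pop1 HFD triangles lie between them and pop2 in most, and Gata6 is above a few counts only in pop1 CD (45.3 and 48.3 CPM).

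The genes of class II presentation summed to 3411, 3518, 2794 and 3791 CPM in pop1 and 6666, 6808, 5964 and 6764 CPM in pop2, and the 2 populations did not overlap on either diet. The peritoneal list summed to 6637, 6182, 2602 and 1666 CPM in pop1 and to 2354, 1836, 1131 and 954 CPM in pop2. Its pop1 HFD and pop2 CD libraries overlapped. Resident genes summed to 16400 to 19870 CPM in all 8 libraries. The receptor background was highest in the pop2 HFD library 3 and pop1 CD library 7 (781 and 687 CPM); with it as a covariate in the fit, 70 genes passed over both diets.

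**Figure D3:**
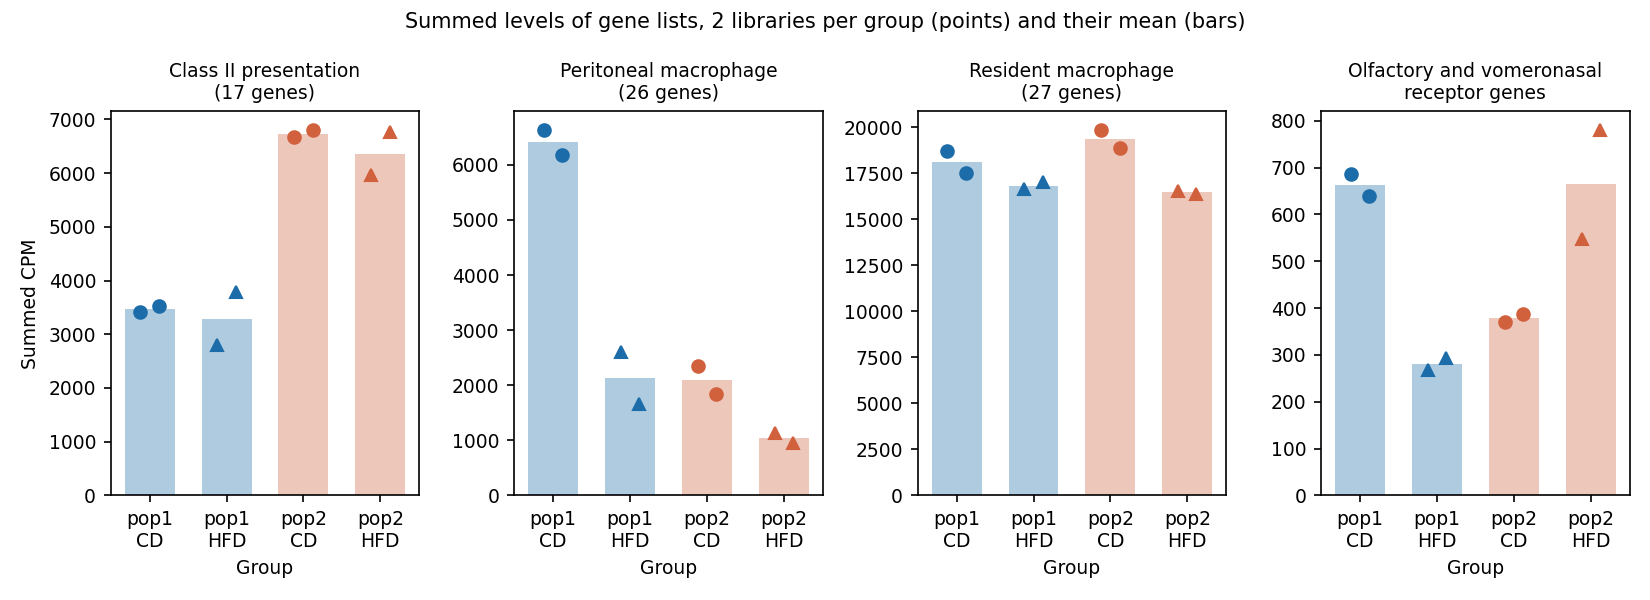
Summed CPM of the class II, peritoneal and resident macrophage lists and of olfactory and vomeronasal receptor genes in the 4 groups; bars are means and points the 2 libraries of a group. The class II bars separate pop1 from pop2 on both diets, the peritoneal bar of pop1 CD stands above the other 3, and the resident bars are between 16400 and 19870 CPM at their libraries.

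Over both diets, 24 of the 32 lists had no member past the threshold. Among macrophage transcription factors 0 of 23 passed in edgeR (4 higher at an unadjusted p under 0.05; 2 higher in DESeq2): Maf differed by -0.11 (SE 0.26), Klf2 by 0.36 (SE 0.21) and Klf4 by 0.11 (SE 0.23). Of 26 growth factor genes Tgfb2 was the 1 that passed, against 0.283% of all genes higher. Of 20 immediate early and heat shock genes Fosb, a subunit of AP-1, was higher in pop1, at 27.8, 35.2, 51.3 and 15.9 CPM against 0, 0, 0.989 and 1.16 CPM (adjusted p = 0.00829; up to 0.0652 without pop2 CD 7, CD 8 or HFD 3). Against the floor of its empty group, Fosb was at least 53.2-fold higher in pop1 CD than in pop2 CD. Axl, a receptor of apoptotic cells, was lower in level in pop1 (59.8, 141, 55.6 and 53.9 CPM against 148, 344, 131 and 150 CPM) without passing (-1.33, SE 0.33, adjusted p = 0.0825). Vsig4, a complement receptor of resident macrophages, was at 375, 383, 208 and 56.5 CPM against 140, 135, 12.3 and 9.77 CPM; the levels separate within each diet, but it did not pass (2.52, SE 0.84, adjusted p = 0.251).

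Beyond the lists, genes higher in pop1 included Nmrk1, a kinase of nicotinamide riboside, at 94.8, 134, 20.6 and 16.4 CPM against 1.32 to 1.98 CPM (4.86, SE 0.64, adjusted p = 0.000336), a call kept whichever library was left out. Fabp7, a fatty acid binding protein, was at 134, 61.9 and 31.5 CPM in 3 pop1 libraries and 0 in replicate 3 of pop1 HFD. In pop2 it was at 0 to 0.22 CPM (adjusted p = 0.00716; lost without pop1 HFD 2, pop2 CD 7 or pop2 CD 8). Mcemp1, a membrane protein of myeloid and mast cells, was at 143, 184, 16.4 and 1.14 CPM against 0.465 to 13.1 CPM (4.13, SE 0.65, adjusted p = 0.00231; 0.0543 without pop1 HFD 2). All 3 genes had their highest levels in pop1 CD.

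Lower in pop1 were, among others, 3 genes of signalling enzymes. Grk3, a kinase of G protein-coupled receptors, was at 4.18, 1.75, 2.20 and 6.98 CPM in pop1 and 33.3, 96.0, 81.3 and 19.5 CPM in pop2 (-3.96, SE 0.48, adjusted p = 0.000205). Rasgrp1, an exchange factor of Ras, was at 1.09, 1.46, 1.79 and 7.79 CPM against 28.0, 58.2, 87.1 and 37.2 CPM (-4.38, SE 0.83, adjusted p = 0.0143; lost without pop1 CD 7, CD 8 or HFD 2, up to 0.107). Pak4, a kinase downstream of CDC42, was at 2.76 to 5.09 CPM against 51.1, 56.6, 15.4 and 68.8 CPM (-3.60, SE 0.70, adjusted p = 0.0163; lost without any pop1 library or pop2 HFD 3). In all 3 genes the populations did not overlap, as in 1.4% of all genes in that direction. Evi2b, a membrane protein of leukocytes, was at 18.4, 81.1, 73.3 and 35.5 CPM against 374, 376, 228 and 115 CPM (-2.28, SE 0.33, adjusted p = 0.00102). It overlaps Gm21975, also called, on the same strand, so their reads cannot be told apart. Clec4b1, a C-type lectin, was at 151, 163, 25.4 and 34.4 CPM against 289, 319, 125 and 198 CPM (-1.69, SE 0.25, adjusted p = 0.00135).

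The eosinophil-associated ribonuclease genes Ear2, Ear3 and Ear12 passed as well, but they occupy 1 locus on chromosome 14 and count as 1 observation. Ear2 was at 0, 7.88, 0.963 and 0.162 CPM in pop1 and 73.8, 96.2, 53.8 and 0 CPM in pop2 (-4.95, adjusted p = 0.0175). With 1 pop2 HFD library at 0, the difference turned to 0.35 when replicate 2 of pop2 HFD was left out, and the call was also lost without pop1 CD 7, HFD 2 or HFD 3. The uncharacterised 1700025G04Rik was at 1.38 to 3.79 CPM in pop1 and 52.2, 38.4, 7.12 and 21.6 CPM in pop2 (-3.40, SE 0.51, adjusted p = 0.00135), and AI504432 at 0 to 5.11 CPM against 17.6, 101.4, 35.2 and 20.5 CPM (adjusted p = 0.0055; 0.0605 without pop1 CD 7). Slc9a4, a sodium-proton exchanger, and Tspan13, a tetraspanin, passed with wide scatter in pop2: 146, 12.7, 32.8 and 2.33 CPM for Slc9a4 and 43.0, 1.22, 70.8 and 29.8 CPM for Tspan13. Both calls were lost without any pop1 library, pop2 CD 7 or pop2 HFD 2.

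**Figure D4:**
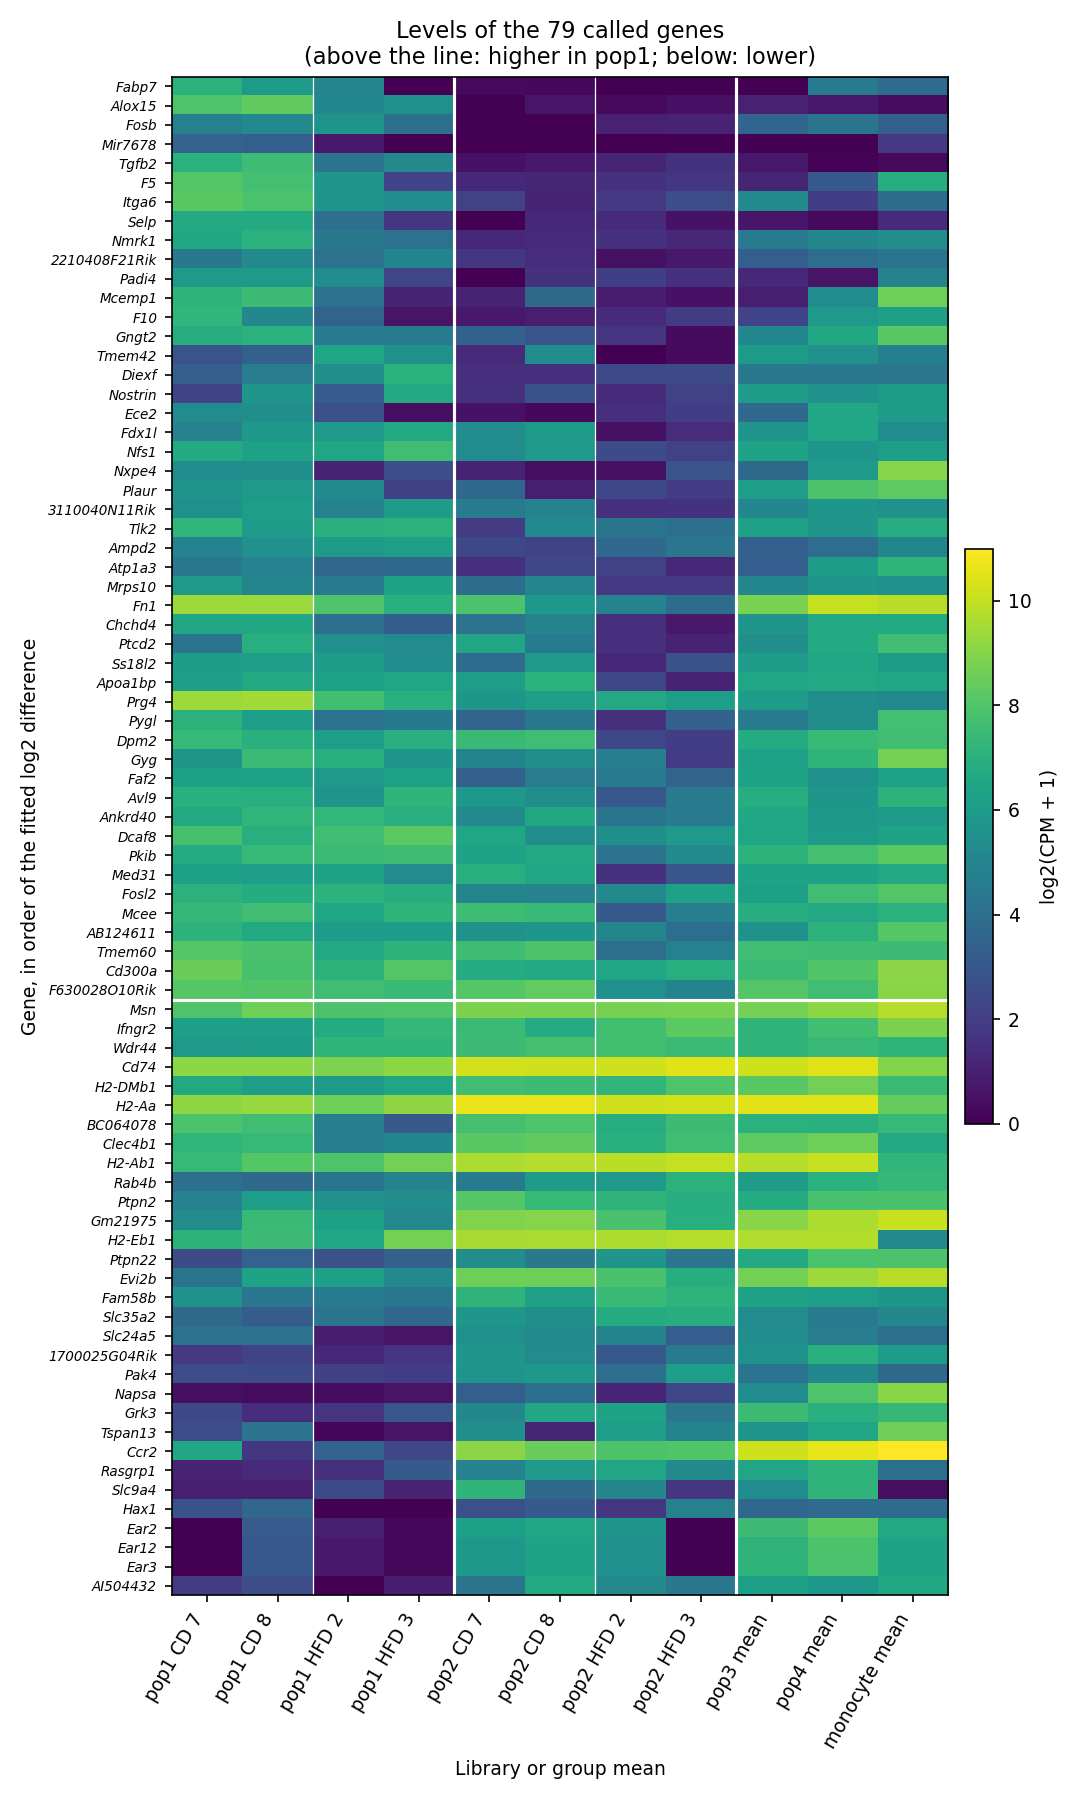
Heat map of the 79 called genes as log2(CPM + 1) in the 8 libraries and in the means of pop3, pop4 and monocytes; genes are ordered by their fitted log2 difference, with the white line between the 48 higher and the 31 lower in pop1. Among the higher genes many rows are brightest in the 2 pop1 CD columns or darkest in the 2 pop2 HFD columns; the lower genes are darker in the 4 pop1 columns than in pop3 and pop4.

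The genes lower in pop1 were also read in the Tim4- cells. All 31 had a mean in pop3 and in pop4 above that of pop1, and on the log2(CPM + 1) scale 28 were closer to pop2 than to pop1 in pop3 and 29 in pop4. Of the 48 higher genes, 32 were closer to pop1 in pop3 and 34 in pop4. These are counts over chosen genes and carry no test.

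On the CD alone 31 genes passed (0.183% of those tested), 18 higher in pop1 (0.106%) and 13 lower (0.0766%). Of the 18 higher genes 16 had pop1 CD as the highest of the 4 groups, a rank that their choice by this comparison favours. Prg4 differed by 3.46 (SE 0.39, adjusted p = 0.000252), F5 by 7.53 (SE 1.14, adjusted p = 0.00463) and Nmrk1 by 6.29 (SE 0.97, adjusted p = 0.00463). Nxpe4 was at 41.3 and 43.2 CPM in pop1 CD and 1.10 and 0.349 CPM in pop2 CD, and at 0.396 to 6.05 CPM in the 4 HFD libraries. Serpinb10, a serpin, was at 71.5 and 76.2 CPM against 1.32 and 0.872 CPM and at 0 to 1.63 CPM on the HFD. Ece2, an endothelin-converting enzyme, was at 39.3 and 42.2 CPM against 0.441 and 0.174 CPM. Of the class II genes Cd74 (-1.10, SE 0.17), H2-Aa (-1.43, SE 0.25) and H2-Ab1 (-1.96, SE 0.34) passed, with adjusted p-values of 0.00463, 0.0111 and 0.012. Without pop1 CD 7 that of Cd74 was 0.0523, and H2-Aa lost its call without pop1 CD 7, pop1 CD 8 or pop2 CD 7 (up to 0.147), whereas in all libraries Ccr2 did not pass (-3.18, SE 0.76, adjusted p = 0.0983). Napsa was lower (-5.14, SE 0.68, adjusted p = 0.00128), and so was Braf, a kinase of the MAP kinase route, at 7.46 and 11.1 CPM in pop1 and 84.0 and 86.5 CPM in pop2 (-3.19, SE 0.53, adjusted p = 0.00703). Of the 25 recruited monocyte and macrophage genes, 1 was higher in pop1 on the CD and 1, Napsa, was lower. Of 12 named genes of this comparison, Napsa, Nxpe4, Prg4 and Serpinb10 kept their call whichever library was left out, while F5, Nmrk1 and Ece2 lost theirs without either pop2 CD library (adjusted p up to 0.0869) and Braf without pop1 CD 7 (0.137). On the CD, 17 genes were called without replicate 7 of pop1 CD, 15 without replicate 7 of pop2 CD, and 49 to 55 when 1 of the 4 HFD libraries was left out.

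On the HFD alone 101 genes passed (0.595%), 74 higher in pop1 (0.436%) and 27 lower (0.159%). Genes chosen as higher in pop1 on the HFD are favoured in advance to be low in pop2 HFD, so ranks of the groups carry no test. Of the 74, 73 had pop2 HFD as the lowest of the 4 groups: their median level was 12.7 CPM there, against 90.4 in pop1 CD, 93.4 in pop1 HFD, 121 in pop2 CD and 107 and 100.1 in pop3 CD and HFD. These 2 libraries had the fewest counts of the 8, the lowest correlation within a group (0.815) and a receptor background of 548 and 781 CPM, against 267 and 293 CPM in pop1 HFD. Dpm2, a subunit of dolichol-phosphate mannose synthase, was at 164, 125, 68.6 and 126 CPM in pop1 and 173, 197, 4.16 and 3.02 CPM in pop2 (4.75, SE 0.44, adjusted p = 7.85e-06). The same order held for Apoa1bp, an NAD(P)HX epimerase (68.9, 101, 76.9 and 89.4 against 69.6, 130, 4.16 and 1.16 CPM), and for Med31, a Mediator subunit (73.3, 69.0, 80.8 and 38.9 against 117, 94.5, 1.98 and 6.75 CPM). Fdx1l, a mitochondrial ferredoxin, had 0.396 and 1.63 CPM in pop2 HFD against 28.6 to 97.3 CPM in the other 6 libraries. With receptor background as a covariate 35 genes passed, and without replicate 2 of pop2 HFD 352. With DESeq2 size factors the split was 63 higher and 32 lower, and with upper-quartile factors 49 and 38.

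Of the 27 genes lower on the HFD, 24 had pop1 HFD as the lowest group, a rank that their choice by this comparison favours. Clec5a, a C-type lectin that signals through DAP12, was at 212, 210, 12.1 and 11.4 CPM in pop1 and 171, 188, 119 and 194 CPM in pop2 (-3.73, SE 0.63, adjusted p = 0.00601 on the HFD; 0.063 without replicate 3 of pop1 HFD). BC064078 had the same shape, at 234.5, 194, 25.3 and 7.30 CPM against 218, 250, 113 and 187 CPM (-3.20, SE 0.49, adjusted p = 0.0022). Ccr2 passed on the HFD (-5.15, SE 0.84, adjusted p = 0.00458; 0.0678 without replicate 3 of pop1 HFD), as did Clec4b1 (-2.44, SE 0.37, adjusted p = 0.0022). Among class II genes H2-Aa, H2-Ab1, Cd74 and H2-DMb1 were lower in pop1, with log2 differences of -1.35, -1.56, -1.33 and -1.42 (SE 0.25, 0.34, 0.17 and 0.27) and adjusted p-values of 0.011, 0.0315, 0.000532 and 0.0169. Of the peritoneal list Fn1 was the 1 gene that passed (3.11, SE 0.44, edgeR adjusted p = 0.000807). At an unadjusted p under 0.05 in edgeR 10 of the 26 list genes were higher, against 1116 of all 16961 genes. In DESeq2, which called more genes in all, 8 were higher. Hax1, an anti-apoptotic protein, had 0 counts in both pop1 HFD libraries and 2.37 and 26.5 CPM in pop2 HFD; its call was lost without either pop1 HFD library (adjusted p up to 0.0612).

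Whether the difference between the populations itself changed between the CD and HFD libraries was tested as an interaction, with 81 genes past the threshold (0.478%). The signed value of pop1 minus pop2 was higher on the HFD for 63 (0.371%) and lower for 18 (0.106%). Diet cannot be told apart here from the CD-CD titling of the CD libraries. Of the 63, 52 had pop2 HFD as the lowest group, a rank that their choice by this test favours. In the class II list 0 of 17 passed in edgeR, and 0 at an unadjusted p under 0.05 and 0 in DESeq2: the HFD minus CD values were 0.09 (SE 0.34) for H2-Aa, 0.39 (SE 0.46) for H2-Ab1, 0.48 (SE 0.75) for H2-Eb1 and -0.24 (SE 0.23) for Cd74. In the peritoneal list Prg4 passed, with a smaller difference on the HFD (-2.50, SE 0.51, edgeR adjusted p = 0.0312). At an unadjusted p under 0.05 in edgeR 7 of 26 were lower, against 969 of all 16961 genes. In DESeq2, which called more genes in all, 5 were lower. The value of Gata6 was -8.98 (adjusted p = 0.072) and that of F10 -5.57 (SE 1.59, adjusted p = 0.135). Ralgapa1, a GTPase-activating protein of Ral, was at 25.3, 33.1, 186 and 265 CPM in pop1 and 123, 148, 56.0 and 47.9 CPM in pop2, so that its order reversed with diet (4.33, SE 0.66, adjusted p = 0.00523). Tmem38b, a cation channel of the endoplasmic reticulum, reversed the other way, at 70.0, 34.9, 1.79 and 1.14 CPM against 7.05, 0.349, 16 and 20 CPM (-7.45, SE 1.07, adjusted p = 0.00523). The median of all genes on this difference was -0.35, and it was -0.49 with DESeq2 size factors and -0.59 with upper-quartile factors. The number of genes was 52 with DESeq2 size factors (35 above 0), 42 with upper-quartile factors (25 above 0) and 6 with receptor background as a covariate. It was 277 without replicate 2 of pop2 HFD, 23 without replicate 7 of pop1 CD and 45 without replicate 7 of pop2 CD.

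Of the 79 genes called over both diets, 40 of the 48 higher and 30 of the 31 lower had the same sign on each diet. The genes were chosen on the mean of these 2 differences, which favours a shared sign, so the counts carry no test. Among the 79 genes, 14 of the higher and 2 of the lower were also called for the difference between diets. The CD and HFD comparisons use separate Tim4+ libraries but share the spread estimated from all 25; 2 genes were called higher on both and 4 lower on both.

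**Figure D5:**
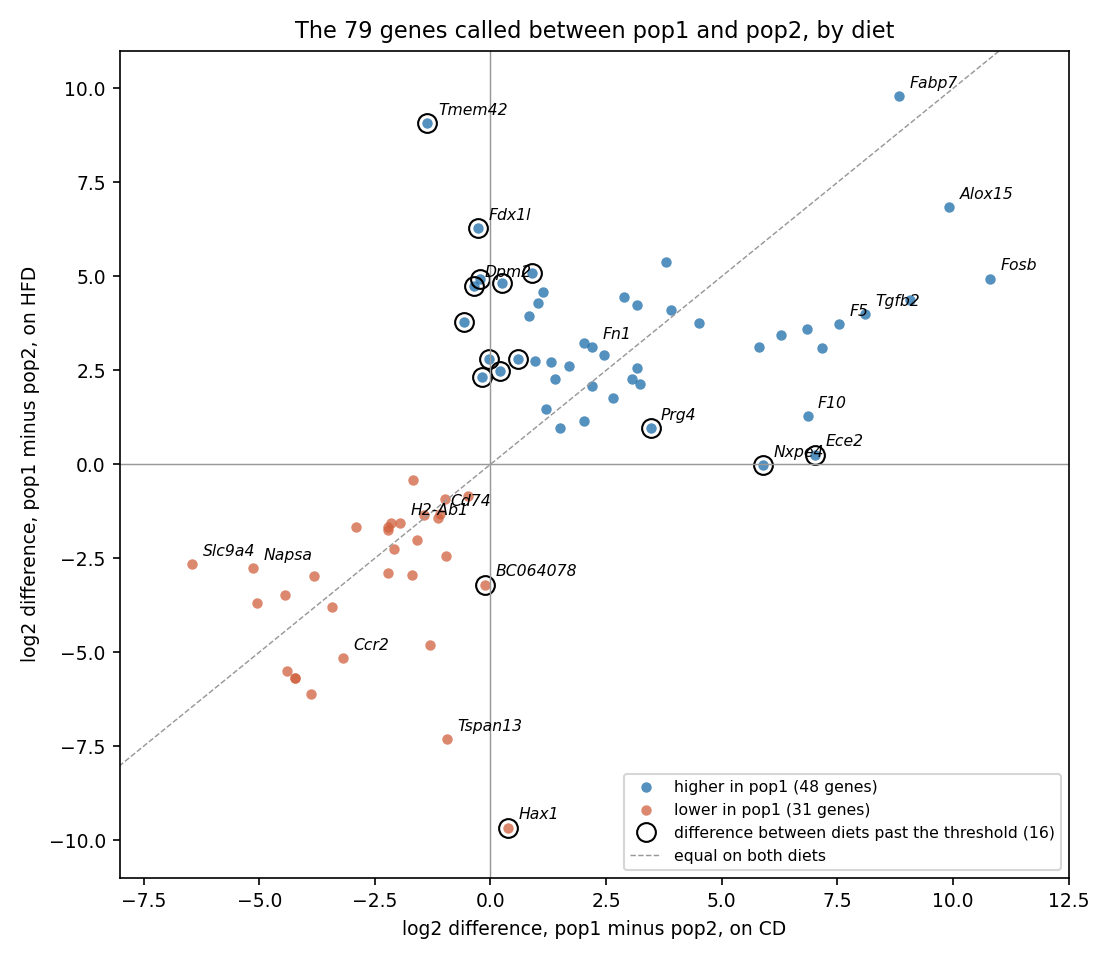
Fitted log2 difference, pop1 minus pop2, on the CD (x axis) and on the HFD (y axis) of the 79 genes called over both diets; circles mark the 16 whose difference between diets passed the threshold, and the dashed line is equality. The 31 lower genes lie mostly in the lower left, while the 48 higher genes spread between an arm near 0 on the CD and an arm far to the right with smaller values on the HFD, such as F10, Tgfb2 and Selp.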

How the data were processed

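RNA of 200 sorted cells per library was made into amplified cDNA, per the labels' protocols. STAR 2.5.3a, HOMER and the mm10 build are named in the submitters' processing notes. The authors deposited raw read counts for 24537 RefSeq gene models; the use of strand, duplicates and multiply aligned reads, and the annotation release, are not given in the sources used here. Near-identical and overlapping genes, class II H2 and Ear genes among them, are therefore uncertain. The deposited gene lengths gave levels per kilobase, and the copy numbers entered no test.

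Counts of the 25 libraries in 10 population-by-diet groups were fitted with edgeR 4.0.16 (R 4.3.3): TMM factors, filterByExpr by group (16961 genes), robust quasi-likelihood fit and F test, Benjamini-Hochberg threshold 0.05, 15 residual degrees of freedom, common biological coefficient of variation 0.749. Contrasts were pop1 minus pop2 over both diets, on each diet, and their difference. The SE given with a log2 difference was derived as its absolute value divided by the square root of the F statistic. It was not estimated separately and is rough for genes near 0 counts. The steps were tested on simulated data. Alternatives were other factors (DESeq2 1.42.0 size factors, upper quartile), other filters, no robust step, DESeq2's Wald test, fewer libraries, a replicate block, receptor background as a covariate, and each library left out; 2 fits without a pair of libraries (pop2 HFD, leaving the CD difference alone, and pop1 CD, leaving the HFD difference alone) were added after seeing the data. Promoters came from RefSeq.

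Members and the 32 gene lists (488 genes, 484 in the table) were chosen with earlier results of these data known. Named genes were the 12 largest differences each way among called genes at 10 CPM or more in the higher population, every called list member, 8 genes of the gates and markers, and the smallest adjusted p-values on each diet and for the difference between diets; genes of a described list are named beside them.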

Additional observations from a re-analysis of the deposited data

Results flagged for a closer look

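In 16 groups of 4 libraries (the 8 marker and gate genes in pop1 and in pop2), 3 had a library that stood apart by Dixon's test at the 95% level; chance flags about 1 in 20 groups. Cd74 in pop1 was lowest in replicate 2 of the HFD, at 474.8 CPM against 553 to 567.9 CPM in the other libraries. Cd74 in pop2 was highest in replicate 3 of the HFD, at 1417 CPM against 1183 to 1216 CPM. Ccr2 in pop1 was highest in replicate 7 of the CD, at 96.58 CPM against 2.48 to 9.90 CPM. None of the 3 brought the populations into overlap.

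For 16 named genes the difference of pop1 minus pop2 changed between diets (edgeR interaction term, Benjamini-Hochberg adjusted p 0.000152 to 0.0495). On the log2 scale, the HFD minus CD value was above 0 for Fdx1l (6.55), Apoa1bp (5.17), Dpm2 (5.11), Braf (4.63), Med31 (4.35), Ralgapa1 (4.33), F630028O10Rik (2.49) and Pkib (2.21). It was below 0 for Hax1 (-10.05), Serpinb10 (-8.79), Tmem38b (-7.45), Ece2 (-6.76), Nxpe4 (-5.91), Clec5a (-3.97), BC064078 (-3.07) and Prg4 (-2.5). These values are signed and do not say on which diet the populations lay further apart. Hax1, Clec5a and BC064078 were lower in pop1 on the HFD (-9.67, -3.73 and -3.20), and Braf was lower in pop1 on the CD (-3.19). Hax1 had 0 counts in both pop1 HFD libraries, and Serpinb10 had at most 2 there, so their fitted values depend on the prior count. F630028O10Rik hosts Mir223, and their reads cannot be told apart.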

How the results depend on the processing

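Over both diets, the count of 79 genes was 567 in DESeq2's Wald test, 19 with only the 16 adipose libraries fitted and 3 with only the 8 Tim4+ libraries, and leaving out 1 library gave 56 to 239. On the CD (31 genes) the same first 3 settings gave 396, 4 and 0, receptor background as a covariate gave 18, and leaving out 1 library gave 15 to 55. On the HFD (101 genes) they gave 799, 11 and 0, with 35 for the covariate and 70 to 352 for left-out libraries; a fit without both pop1 CD libraries, which leaves the HFD difference alone, gave 133. For the difference between diets (81 genes) they gave 583, 1 and 0, with 6 for the covariate, 52 with DESeq2 size factors, 42 with upper-quartile factors and 23 to 277 for left-out libraries. The DESeq2 counts of list members given above stand against these larger DESeq2 totals (567, 396, 799 and 583 genes), not against the edgeR shares. In the 8 libraries alone 757 genes (pop1 minus pop2 over both diets) to 1401 (pop1 minus pop2 on HFD) had an unadjusted p under 0.05 in the 4 comparisons. Chance alone would give such a p to a share of 0.05 of the genes tested, here and with the replicate block. The unadjusted counts of these fits are therefore not read as a result. The replicate block, fitted in the 8 libraries with the title numbers, gave 0, 0, 0 and 0 genes (552 to 1106 at an unadjusted p under 0.05). Same-numbered libraries of pop1 and pop2 deviated together at a correlation of 0.025 (CD) and 0.035 (HFD) over all genes. Adipocyte genes still moved with the number. They summed to 192 and 409 CPM in pop1 CD 7 and 8, 201 and 725 in pop2, 136 and 595 in pop3, and 124 and 520 in pop4. Stromal progenitor genes did not, at 234.5 and 860 CPM in pop1 CD 7 and 8 and 589 and 485 in pop2. Whether same-numbered libraries share an animal is not given in the sources used here, and the fit with the block leaves fewer residual degrees of freedom. With DESeq2 size factors 45 genes were higher and 40 lower over both diets, and with upper-quartile factors 45 and 42. Of single-gene values under the alternatives, 955 kept their side of the threshold and direction, 310 lost the call and 5 had the other sign. Itgax moved from -0.998 in the main fit to 0.064 without replicate 7 of pop2 CD. Without replicate 2 of pop2 HFD, Ear3 and Ear12 moved from -4.953 to 0.237 and Ear2 from -4.946 to 0.35. With another library left out, the lowest values were -1.424 for Itgax, -8.797 for Ear3 and Ear12, and -8.861 for Ear2. Hax1 was at 0.385 in the fit without both pop2 HFD libraries, which is its difference on the CD alone and thus another comparison. The cause of the others was not tested. The filter of 10 counts removed Fabp7, Napsa, Itgax and Serpinb10, and DESeq2 gave Itgax no adjusted p. With 2 libraries per group, depth limits genes near the floor of 3 counts most.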
